A study of Rattus norvegicus with 15 samples.

Results

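Translation initiation and elongation factors are the proteins that bring the ribosome, the initiator tRNA and the mRNA together and then drive the ribosome along the message. They were taken from the deposited table as every protein coding gene whose symbol begins with Eif1 to Eif6, Eef1 or Eef2, which gave 65 of the 22050 protein coding genes listed. All 65 passed the filter on low counts, so that the description rests on every member. A single further row with a matching symbol, Eef1aknmt, carries another biotype and was left out. Eif3e, Eif3h and Eif4e1b were not analysed here.

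During initiation, eIF2 carries the initiator tRNA to the small ribosomal subunit, eIF1 and eIF1A keep that subunit open for scanning, eIF3 holds the assembly together, and the cap-binding complex of eIF4E, eIF4G and the helicase eIF4A recruits the mRNA. The step is limited at eIF2, whose alpha subunit is phosphorylated by a family of stress kinases, and at the cap, where 4E-binding proteins occupy eIF4E unless the kinase mTORC1 releases them. During elongation, eEF1A delivers aminoacyl-tRNA, the eEF1B subunits recharge it with GTP, and eEF2 moves the ribosome by a codon. The liver is a major site of protein synthesis because hepatocytes secrete most plasma proteins.

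The livers came from male Wistar rats, which were age-matched and weighed between 75 and 100 g at the start. Control rats (n = 4) received no treatment. Rats with cirrhosis (n = 5) inhaled carbon tetrachloride (CCl4), a hepatotoxin, and drank phenobarbital at 0.35 g/L for 12 weeks. Rats with cirrhosis & eplerenone (n = 5) had the same exposure and from week 8 ate eplerenone, a mineralocorticoid receptor antagonist, at 100 mg/kg in hazelnut spread. Livers were taken 7 to 10 days after the last CCl4. Cirrhosis was thus always accompanied by phenobarbital, and control rats received neither agent, so that these agents cannot be told apart. Each library holds the liver RNA of 1 rat. The authors state that rats were picked for sequencing by the success of cirrhosis induction, of eplerenone treatment or of both, judged by phenotype. Differences between the groups therefore include this choice of rats.

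Between 16157491 and 21574767 reads were counted per library. Levels are given as FPM, the CPM that edgeR computes from the counts after scaling library sizes by the trimmed mean of M values (TMM). They are not corrected for gene length, so that levels are not compared between genes. A count of 3 corresponded to 0.121 to 0.191 FPM, which covers counting error only. The scaling factors were 0.847 to 0.877 in control rats, 0.968 to 1.21 in cirrhosis, and 0.925 to 1.40 in rats with cirrhosis & eplerenone. Whole liver RNA mixes cell types, and fewer cells of a type cannot be told apart from less RNA per cell. Marker genes were called in cirrhosis against control at an FDR below 0.05 in both edgeR and DESeq2. Called higher were 5 of 5 cholangiocyte, 4 of 6 stellate cell and fibroblast, 4 of 5 proliferation and 3 of 6 lymphocyte markers. Called lower were 1 of 7 hepatocyte, 1 of 6 macrophage and 1 of 4 endothelial markers. Of all protein coding genes, 13.8% were called higher and 6.72% lower. By direction alone, 6 of 6 stellate cell and fibroblast, 5 of 5 proliferation and 5 of 6 lymphocyte markers lay above control. Below control lay 5 of 7 hepatocyte, 3 of 6 macrophage and 3 of 4 endothelial markers. The summed cholangiocyte markers were 13.9 to 22.3 FPM in control rats, 41.5 to 134 in cirrhosis, and 44.4 to 85.4 in rats with cirrhosis & eplerenone, and the summed hepatocyte markers were 135000 to 149830, 72939 to 140790 and 72784 to 132240 FPM. The summed stellate cell and fibroblast markers were 122 to 218, 237 to 485 and 347 to 470 FPM, the summed proliferation markers were 20.2 to 29.5, 46.6 to 89.9 and 17.8 to 75.4 FPM, the summed lymphocyte markers were 3.47 to 6.53, 7.68 to 15.5 and 4.13 to 12.3 FPM, the summed macrophage markers were 187 to 327, 85.1 to 307 and 136 to 376 FPM, and the summed endothelial markers were 135 to 168, 49.5 to 163 and 109 to 151 FPM, in the same order of groups. Single genes made up most of some sums. Mean Alb was 122800, 79392 and 92031 FPM in control, cirrhosis and cirrhosis & eplerenone, and mean Col3a1 was 125, 216 and 293 FPM. Among the hepatocyte markers, Apoa1 and Cyp2e1 lay above control in cirrhosis, unlike the other 5. The part of cell composition in the changes of the factors was not tested.

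Cirrhosis replicates 1 and 3 stood apart from the other rats of their group in the levels of the factors. They had 33 and 35 factors above and 20 and 22 below the range of the control rats, against 19, 24 and 17 above and 21, 22 and 13 below in replicates 2, 4 and 5, so that they differed from the rest of the group in the number above the control range, and from replicate 5 alone in the number below it. Relative to the control mean, the median over the 65 factors was 0.32 and 0.26 (log2 FPM) in cirrhosis replicates 1 and 3, and 0.01, 0.03 and -0.02 in replicates 2, 4 and 5. In 44 of the 65 factors, replicates 1 and 3 were either the highest pair (31 factors) or the lowest pair (13 factors) of the cirrhosis group. The shares of all genes for these counts were not computed. Over all genes with enough reads, replicates 1 and 3 were also the most alike pair of the group. The chi-square between their counts was 25.0 per gene, against 75.3 to 280 for the other cirrhosis pairs. Their standing apart is thus not shown to be particular to the factors. The summed hepatocyte markers of replicates 1 and 3, a sum made up mostly of Alb, were 74453 and 72939 FPM, against 99841, 85609 and 140790 FPM in replicates 2, 4 and 5. The main counts and medians and the factors for which these rats held the extreme values are given with and without them, the latter being an alternative chosen after seeing the data.

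A read with several mapping positions was counted at every one of them, and factors of this family have many pseudogene copies in the genome. RefSeq lists 121 pseudogenes named after 34 of the 65 factors in the assembly GRCr8, with 20 for Eef1a1, 16 for Eef1g, 10 for Eif4e, 9 for Eif5 and 8 each for Eif1 and Eif4a1. The levels of these genes, of Eif3el1, and of the close pairs Eif1ax and Eif1a, and Eif2s3 and Eif2s3y, are therefore uncertain. Whether counting used the strand was not stated.

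Several of these mRNAs are known to begin with a terminal oligopyrimidine (TOP) tract, which places their translation under mTORC1. Promoter sequences of RefSeq (GRCr8), 250 bases before to 50 bases after the annotated start, were matched by symbol to 56 of the 65 factors. Eif1a, Eif4e2 and Eif4g3 had several entries and were left out, and Eef1akmt3, Eef1d, Eif3el1, Eif4b, Eif4e3 and Eif4ebp1 had none. A TOP-like start, here a C followed by at least 4 pyrimidines with the C at most 10 bases from the annotated start on the gene strand, was found in 22 of 56 factors (39.3%) and in 28.5% of the promoters of 21851 protein coding genes. Of 6 factors with known TOP mRNAs and a promoter entry, it was found in 3 (50%), and not in Eef1a2, Eef1g and Eef2. A window without the run therefore does not show that the mRNA lacks a TOP tract. The windows below run from 40 bases before to 20 bases after the start, with the TOP-like run in capitals. They show a known TOP mRNA (Eef1a1), an eEF1B subunit (Eef1b2), an eIF3 subunit (Eif3m), an eIF2 subunit (Eif2s3) and the elongation factor methyltransferase Eef1akmt1, followed by Eif1ax and Eif6, both with higher levels in cirrhosis, whose windows hold no such run. Their positions are chr8:88225050-88225109 (minus strand), chr9:72074051-72074110 (plus), chr3:111897174-111897233 (minus), chrX:62933680-62933739 (minus), chr15:35826902-35826961 (minus), chrX:39322004-39322063 (minus) and chr3:164791391-164791450 (minus), in the order printed.
Eef1a1: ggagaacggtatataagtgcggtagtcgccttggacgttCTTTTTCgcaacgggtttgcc
Eef1b2: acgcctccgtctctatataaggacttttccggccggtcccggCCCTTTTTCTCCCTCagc
Eif3m: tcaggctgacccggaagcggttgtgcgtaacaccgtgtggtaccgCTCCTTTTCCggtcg
Eif2s3: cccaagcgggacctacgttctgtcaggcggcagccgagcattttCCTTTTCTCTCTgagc
Eef1akmt1: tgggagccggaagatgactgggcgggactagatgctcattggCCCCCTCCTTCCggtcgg
Eif1ax: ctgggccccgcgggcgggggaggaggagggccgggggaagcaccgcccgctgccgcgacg
Eif6: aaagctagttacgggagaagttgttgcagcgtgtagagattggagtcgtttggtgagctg

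The canonical E-box CACGTG, a palindrome and therefore the same on both strands, was present in these promoters of 12 of 56 factors (21.4%), against 7.02% of the promoters of protein coding genes. The 12 were Eef1akmt4, Eef2, Eef2k, Eif1b, Eif3a, Eif3b, Eif3f, Eif4e, Eif4g1, Eif4h, Eif5a and Eif5a2. The E-box, in capitals, is shown for 4 factors of different roles, an eIF3 subunit, the cap-binding protein, its scaffold and the translocation factor. The windows lie at chr12:19334803-19334842 (minus strand), chr2:229740503-229740538 (plus), chr11:93746399-93746438 (minus) and chr7:9189292-9189331 (minus).
Eif3b: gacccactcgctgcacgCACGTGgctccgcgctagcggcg
Eif4e: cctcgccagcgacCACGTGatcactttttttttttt
Eif4g1: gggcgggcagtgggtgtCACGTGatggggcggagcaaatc
Eef2: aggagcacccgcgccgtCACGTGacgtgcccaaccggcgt

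To find out how cirrhosis affected the translation machinery, livers of rats with cirrhosis were compared with those of control rats. Of the 65 factors, 8 (12.3%) had an FDR below 0.05 in both edgeR and DESeq2, the rule for calling a gene, whereas 20.6% of the 13628 protein coding genes tested were called. Of these, 5 factors (7.69%) were higher in cirrhosis, namely Eef1akmt1, Eif6, Eif4ebp1, Eif1ax and Eif2b2, against 13.8% of all genes. The other 3 (4.62%), Eef2kmt, Eif2ak1 and Eif5, were lower, against 6.72% of all genes. The levels of the groups did not overlap for 6 factors (9.23%), whereas this was the case for 20.5% of all genes.

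In size, the median absolute log2 fold change (log2FC) of the factors was 0.34, against 0.49 over all protein coding genes, and 5 factors (7.69%) had an absolute log2FC of at least 1, against 24.8% of all genes. The median log2FC was 0.10 for the factors and -0.01 for all genes, with 39 factors above 0 and 26 below. It was 0.017 for the factors without cirrhosis replicates 1 and 3, with 36 above 0 and 29 below. At an unadjusted p below 0.05 in edgeR there were 23 factors (35.4%), against 37.6% of all genes. The abundant elongation factor mRNA Eef1a1 had a log2FC of -0.10 (SE 0.18) and that of Eef2 a log2FC of 0.19 (SE 0.20).

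**Figure D1:**
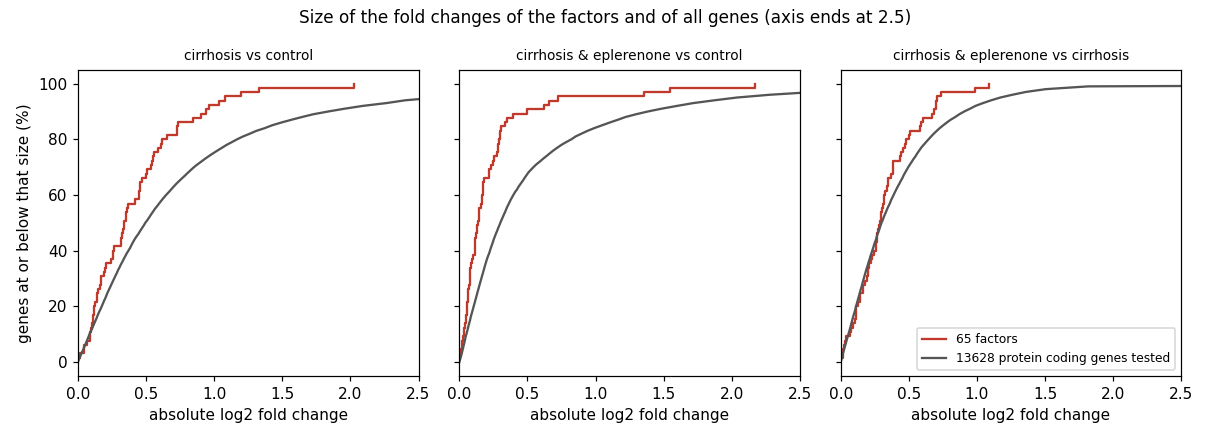
The share of genes (y axis, %) at or below each absolute log2 fold change (x axis) is drawn for the 65 factors (red) and for the 13628 protein coding genes tested (grey) in the 3 comparisons. In cirrhosis against control the red line runs to the left of the grey line, with medians of 0.34 and 0.49.

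The count of 8 rested on the samples used. Without cirrhosis replicates 1 and 3, 2 factors (Eef1akmt1 and Eif1ax) were called, against 7.35% of all genes. Without cirrhosis replicate 5 alone, 20 factors were called, against 32.5% of all genes. With library sizes left unscaled, the median log2FC of all genes moved to 0.28 and 19 factors were called, every one of them higher, against 24.2% of all genes. Eef2kmt, Eif2ak1 and Eif5 then had log2FC of -0.89, -0.42 and -0.25 and were not called. After a first letter, the labels of the rats carry the number 13 or 16 in control rats and 15 or 20 in both CCl4 groups. This number, here called the label prefix, and the CCl4 exposure therefore cannot be told apart.

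**Figure D2:**
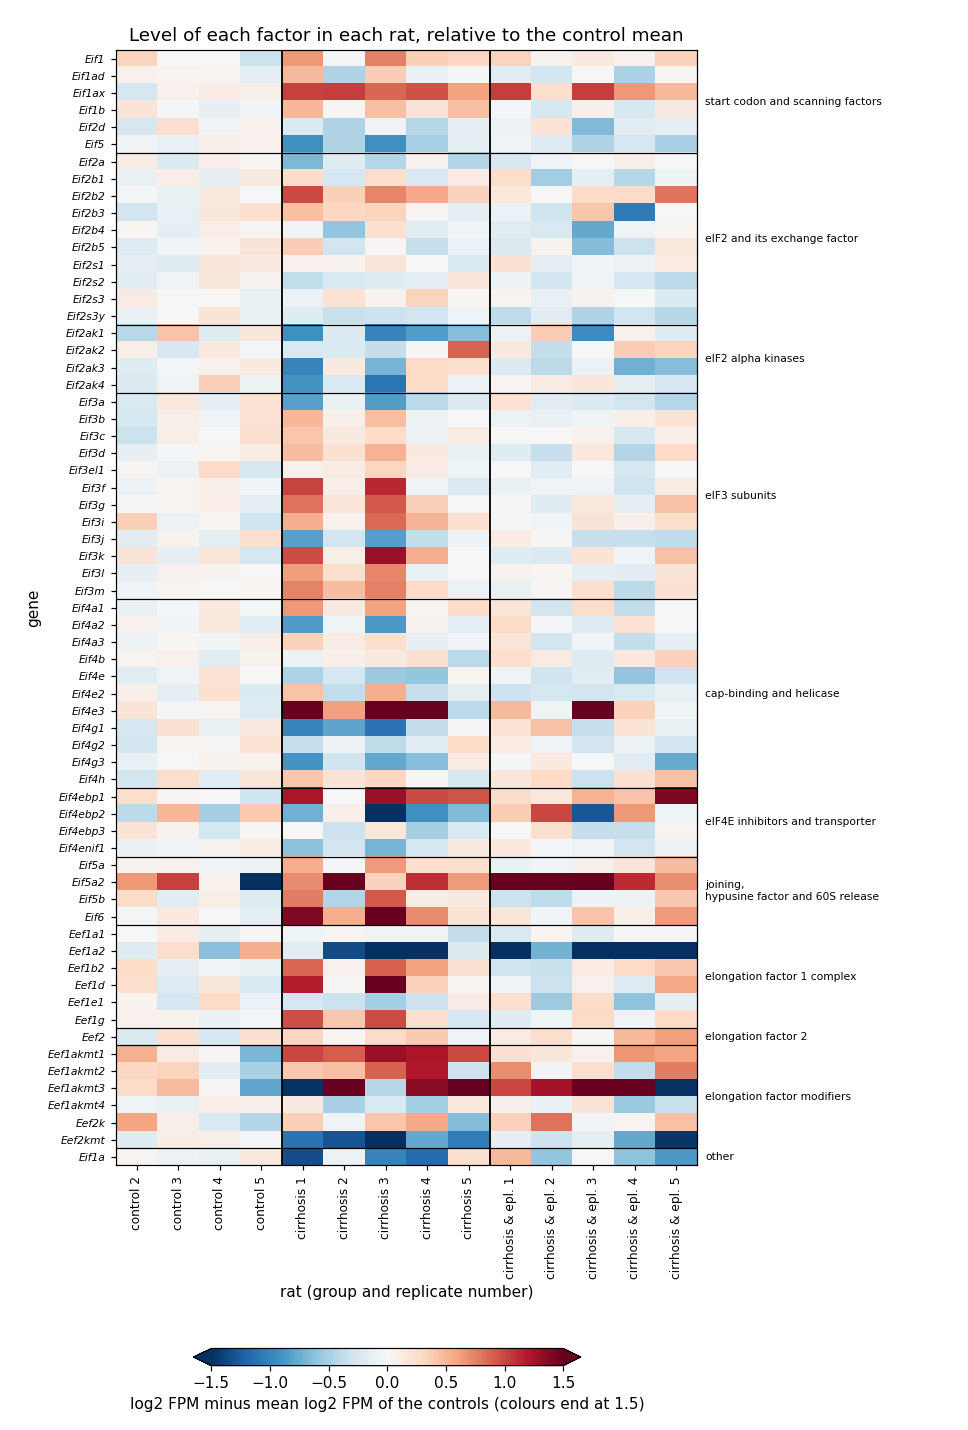
Each row is 1 of the 65 factors, ordered by role, and each column is 1 of the 14 rats. Colour gives log2 FPM minus the mean log2 FPM of the control rats (red higher, blue lower, ends at 1.5). Cirrhosis replicates 1 and 3 carry the strongest colours, with medians of 0.32 and 0.26 over the factors.

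The largest increase among the called factors was that of a modifying enzyme. Eef1akmt1, a lysine methyltransferase of eEF1A (ENSRNOG00000009849, chromosome 15 in rn6), stood at 6.82, 5.09, 4.76 and 2.86 FPM in the control rats, at 9.43, 8.85, 11.49, 11.03 and 9.34 FPM in cirrhosis, and at 5.47, 5.26, 4.90, 7.45 and 7.10 FPM in cirrhosis & eplerenone. Every rat with cirrhosis lay above every control rat and also above every rat that received eplerenone. The increase was 2.05-fold (log2FC 1.04, SE 0.24, edgeR FDR 0.0103, DESeq2 FDR 0.000238), and it was called in 14 of 14 fits that each left out 1 rat. In the same class, Eef2kmt, the lysine methyltransferase of eEF2 (ENSRNOG00000002876, chromosome 10), was at 4.52, 5.55, 5.49 and 5.09 FPM in control rats, 2.33, 2.04, 1.46, 2.97 and 2.44 FPM in cirrhosis and 4.70, 4.13, 4.70, 2.99 and 1.80 FPM in cirrhosis & eplerenone. All rats with cirrhosis were below all control rats, and the rats that received eplerenone overlapped both groups, with 3 of 5 below the control range and the other 2 inside it. The level fell to 0.436 of control (log2FC -1.20, SE 0.30, edgeR FDR 0.0142, DESeq2 FDR 0.00153), which was called in 14 of 14 fits with 1 rat left out but not without cirrhosis replicates 1 and 3 together (log2FC -1.03).

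The remaining modifiers were not called. Eef2k, the kinase that inhibits eEF2, had means of 19.1 ± 6.27, 21.0 ± 6.28 and 23.5 ± 5.78 FPM (SD, n = 4, 5 and 5) in control, cirrhosis and cirrhosis & eplerenone, and a log2FC of 0.14 (SE 0.27) in cirrhosis. Eef1akmt2, another methyltransferase of eEF1A, had a log2FC of 0.58 (SE 0.34) and Eef1akmt4 one of -0.16 (SE 0.23). Eef1akmt3 was near the counting limit, with 0.0636 to 0.289 FPM in control rats and 0 to 2.62 FPM in cirrhosis, where cirrhosis replicate 5 held the highest value.

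**Figure D3:**
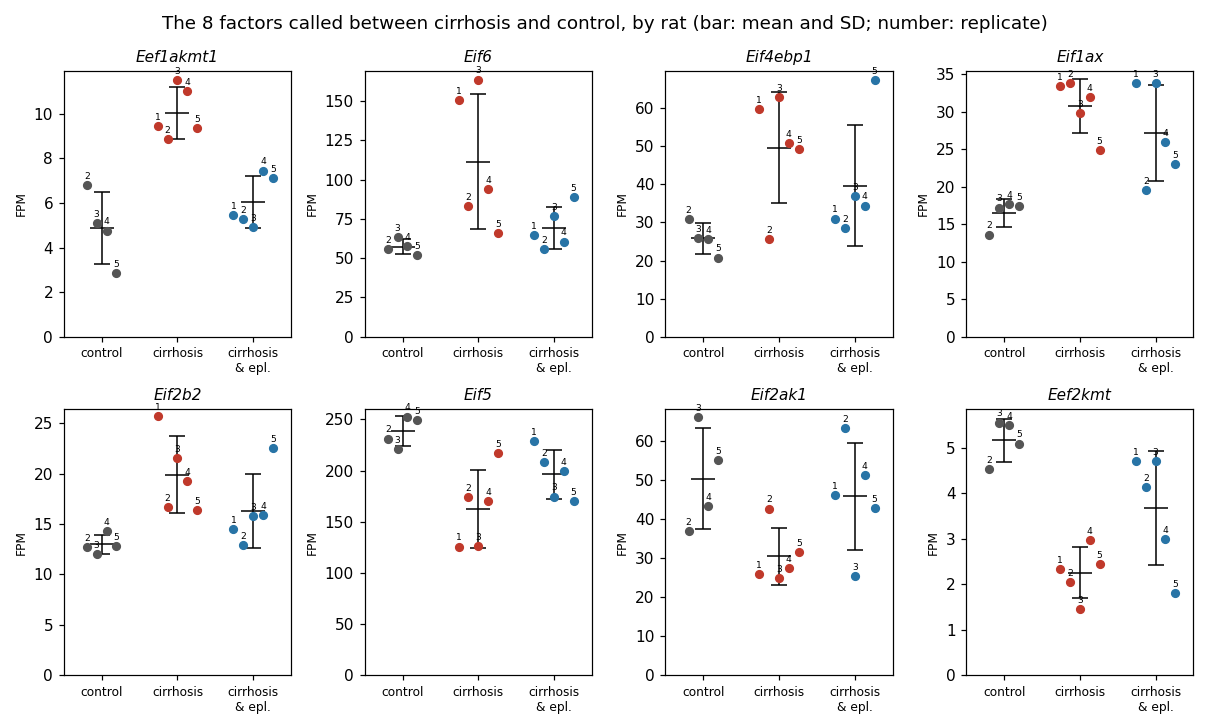
FPM (y axis, from 0) of the 8 factors called between cirrhosis and control is plotted for each rat (points, labelled with the replicate number) in the 3 groups, with the mean and SD as bars. For Eif6 the points of cirrhosis replicates 1 and 3, at 150 and 164 FPM, sit far above the rest of their group.

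Among the factors that select the start codon, Eif1ax, the X-linked gene of eIF1A, was higher in both CCl4 groups. It was at 13.6, 17.2, 17.7 and 17.4 FPM in control rats, at 33.4, 33.9, 29.8, 31.9 and 24.9 FPM in cirrhosis and at 33.8, 19.5, 33.8, 25.9 and 23.0 FPM in cirrhosis & eplerenone (ENSRNOG00000005736). All 10 rats that inhaled CCl4 were above the 4 control rats. The increase was 1.87-fold in cirrhosis (log2FC 0.90, SE 0.18, edgeR FDR 0.00472, DESeq2 FDR 6.57e-05), and it was called in 14 of 14 fits with 1 rat left out and without cirrhosis replicates 1 and 3. The row Eif1a on chromosome 18, a close relative, was at 46.4 to 55.5 FPM in control rats and at 19.7, 46.8, 24.9, 22.4 and 58.8 FPM in cirrhosis, where replicates 2 and 5 lay near the control rats. Its log2FC was -0.54 (SE 0.33) and it was not called.

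Eif5 encodes the GTPase-activating protein of eIF2, which acts when the start codon is found. Its level was 231, 221, 253 and 250 FPM in control rats, 126, 174, 126, 170 and 217 FPM in cirrhosis and 229, 208, 175, 200 and 170 FPM in cirrhosis & eplerenone (ENSRNOG00000010218, chromosome 6). Cirrhosis replicate 5 lay just under the lowest control rat, and the groups did not overlap. The level fell to 0.682 of control (log2FC -0.55, SE 0.18, edgeR FDR 0.0439, DESeq2 FDR 0.0138). This call was close to the threshold and was made in 4 of 14 fits with 1 rat left out (log2FC -0.68 to -0.45). It was lost without any of the control rats, without cirrhosis replicate 1, 2, 3 or 4, and without cirrhosis & eplerenone replicate 1 or 4. Eif1, which guards start codon choice, had means of 215 ± 40.1, 287 ± 59.3 and 242 ± 24.9 FPM and was not called (log2FC 0.42, SE 0.19, edgeR FDR 0.128).

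Eif2s1, the subunit of eIF2 that stress kinases phosphorylate, had means of 40.7 ± 5.12, 41.0 ± 4.14 and 41.2 ± 4.47 FPM in control, cirrhosis and cirrhosis & eplerenone, with a log2FC of 0.01 (SE 0.14) in cirrhosis. Of the 10 genes grouped here, which are 4 of eIF2, 5 of its exchange factor eIF2B and Eif2a, a separate initiation factor (log2FC -0.31), 5 lay above and 5 below control (3 and 7 without cirrhosis replicates 1 and 3). Among them only Eif2b2, the beta subunit of eIF2B (ENSRNOG00000006467, chromosome 6), was called. Eif2b2 was at 12.7, 12.0, 14.3 and 12.8 FPM in control rats, at 25.7, 16.6, 21.5, 19.2 and 16.4 FPM in cirrhosis and at 14.5, 12.95, 15.8, 15.9 and 22.6 FPM in cirrhosis & eplerenone. All rats with cirrhosis lay above all control rats. The increase was 1.53-fold (log2FC 0.62, SE 0.19, edgeR FDR 0.0334, DESeq2 FDR 0.0102). It was called in 7 of 14 fits with 1 rat left out (log2FC 0.54 to 0.68) and was lost without any of the control rats and without cirrhosis replicate 1, 3 or 4. Eif2b5, the catalytic epsilon subunit, had a log2FC of -0.05 (SE 0.19).

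Of the 4 eIF2 alpha kinases, Eif2ak1, the heme-regulated kinase, was lower in cirrhosis. Its level was 36.8, 65.9, 43.2 and 55.1 FPM in control rats, 25.8, 42.6, 24.7, 27.3 and 31.4 FPM in cirrhosis and 45.9, 63.2, 25.4, 51.1 and 42.8 FPM in cirrhosis & eplerenone (ENSRNOG00000001050, chromosome 12). Cirrhosis replicate 2 lay inside the control range and the other 4 rats of its group below it. The level was 0.605 of control (log2FC -0.73, SE 0.25, edgeR FDR 0.0495, DESeq2 FDR 0.0354). The call was made in 5 of 14 fits with 1 rat left out (log2FC -0.88 to -0.57) and was lost without control replicate 3, 4 or 5, without cirrhosis replicate 1, 3 or 4 and without cirrhosis & eplerenone replicate 1, 4 or 5.

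The other 3 kinases were not called. Eif2ak3, known as PERK and activated by stress of the endoplasmic reticulum, was at 18.3 to 23.0 FPM in control rats and at 10.3, 23.0, 12.8, 25.7 and 24.6 FPM in cirrhosis. Eif2ak4, known as GCN2 and activated by amino acid shortage, was at 12.2 to 18.3 FPM in control rats and at 7.54, 12.0, 6.58, 17.1 and 13.3 FPM in cirrhosis. For both kinases cirrhosis replicates 1 and 3 were the lowest pair of the group and lay below every control rat. Eif2ak2, known as PKR and activated by double-stranded RNA, was at 17.9 to 23.3 FPM in 4 rats with cirrhosis and at 42.4 FPM in cirrhosis replicate 5. The median log2FC of the 4 kinases was -0.23, and 0.13 without cirrhosis replicates 1 and 3. With library sizes left unscaled it was 0.09, where all genes stood at 0.28. Relative to the median of all genes, these 3 values were -0.22, 0.13 and -0.19.

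The 12 genes with an Eif3 symbol were grouped as subunits of eIF3, the scaffold of the initiation complex. They include Eif3el1, and lack Eif3e and Eif3h. None of the 12 was called in cirrhosis, although 10 of 12 lay above control with a median log2FC of 0.30. By edgeR, 6 subunits had an unadjusted p below 0.05, against 37.6% of all genes, and none an FDR below 0.05. By DESeq2 3 subunits had an FDR below 0.05 (Eif3i, Eif3k and Eif3m), against 3847 of the 13628 protein coding genes tested. Eif3f stood at 94.9, 104, 107 and 97.4 FPM in control rats and at 203, 107, 221, 96.2 and 87.5 FPM in cirrhosis. Eif3k stood at 64.4, 51.5, 63.4 and 47.2 FPM in control rats and at 111, 59.7, 137, 81.8 and 55.8 FPM in cirrhosis. For both subunits the highest values were those of cirrhosis replicates 1 and 3, while replicates 4 and 5 lay inside or below the control range for Eif3f, as did replicates 2 and 5 inside it for Eif3k. Eif3a, the largest core subunit, had a log2FC of -0.46 (SE 0.19, edgeR FDR 0.102), and Eif3j, which sits loosely at the complex, one of -0.45 (SE 0.18). Eif3a was at 127, 167, 138 and 172 FPM in control rats and at 85.0, 140, 83.7, 113 and 129 FPM in cirrhosis, so that the same pair of rats was lowest. Without cirrhosis replicates 1 and 3, the median log2FC of the 12 genes was 0.08, with 9 of 12 above control. The log2FC was then -0.03 for Eif3f, 0.25 for Eif3k and -0.22 for Eif3a.

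**Figure D4:**
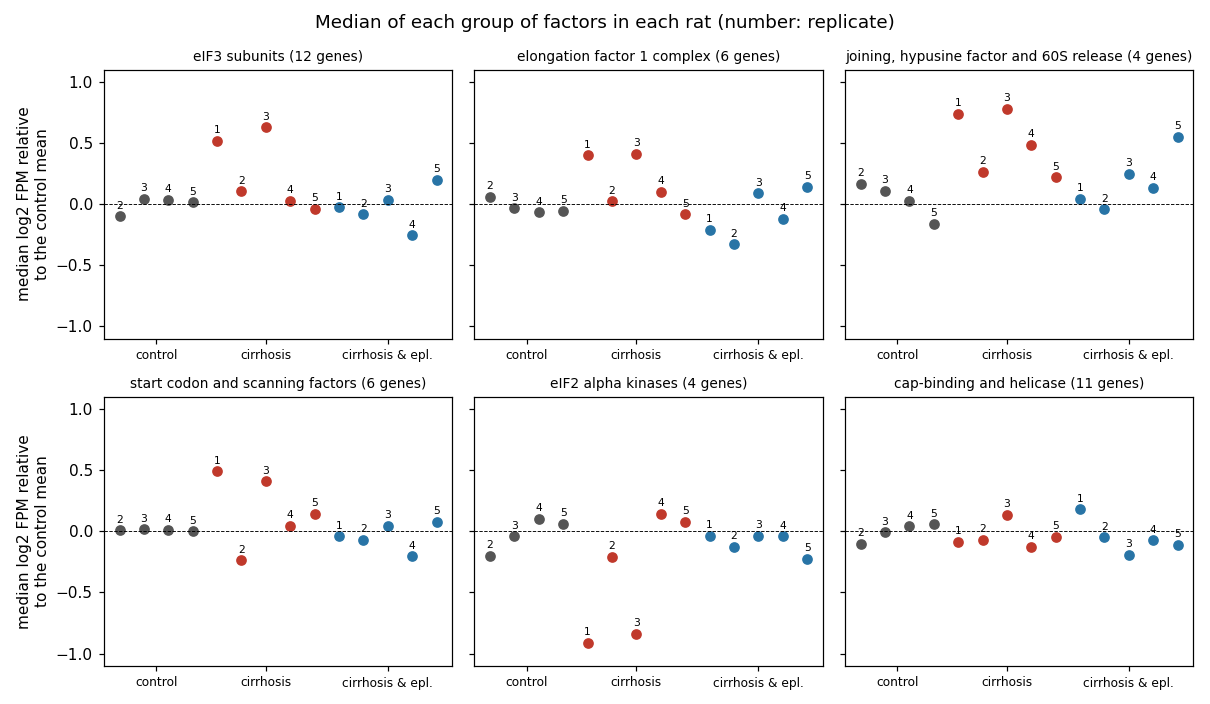
For 6 groups of factors, the median over the genes of log2 FPM relative to the control mean (y axis) is plotted for each rat (x axis by group, points labelled with the replicate number). Cirrhosis replicates 1 and 3 stand at 0.52 and 0.63 for eIF3 subunits and at -0.91 and -0.84 for eIF2 alpha kinases, away from the other 3 rats with cirrhosis.

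At the cap, none of the 11 cap-binding and helicase genes was called, against 20.6% of all genes. By edgeR, 4 had an unadjusted p below 0.05, against 37.6% of all genes, and 1 was called by DESeq2 alone, Eif4e3. Eif4g1, the scaffold that joins the cap to eIF3, was at 184, 256, 202 and 240 FPM in control rats, at 110, 126, 101.3, 170.5 and 216 FPM in cirrhosis and at 253, 297, 172, 252 and 202 FPM in cirrhosis & eplerenone. Only cirrhosis replicate 5 lay inside the control range. The log2FC of Eif4g1 was -0.61 (SE 0.24, edgeR FDR 0.0762, DESeq2 FDR 0.0529), and -0.34 without cirrhosis replicates 1 and 3. The cap-binding protein Eif4e had means of 46.3 ± 5.35, 36.3 ± 6.99 and 38.1 ± 5.04 FPM and a log2FC of -0.35 (SE 0.16, edgeR FDR 0.127). The helicases Eif4a1, Eif4a2 and Eif4a3 had log2FC of 0.36 (SE 0.19), -0.32 (SE 0.21) and 0.11 (SE 0.15).

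Eif4e3, a member of the eIF4E family that binds the cap in an unusual way, was at 1.59 to 2.11 FPM in control rats, at 5.77, 2.86, 7.71, 5.54 and 1.37 FPM in cirrhosis and at 2.61, 1.75, 6.03, 2.37 and 1.75 FPM in cirrhosis & eplerenone. Cirrhosis replicate 5 was below every control rat, while the other 4 rats with cirrhosis were above them. The log2FC was 1.33 (SE 0.48, edgeR FDR 0.0605, DESeq2 FDR 0.0237), and 0.85 without cirrhosis replicates 1 and 3.

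Of the 4 genes for inhibitors of eIF4E and its transporter, Eif4ebp1, the best known 4E-binding protein, was higher in cirrhosis. It was at 30.8, 25.9, 25.8 and 20.8 FPM in control rats, at 59.9, 25.5, 62.8, 50.8 and 49.3 FPM in cirrhosis and at 31.0, 28.5, 36.9, 34.4 and 67.5 FPM in cirrhosis & eplerenone (ENSRNOG00000012582, chromosome 16). Cirrhosis replicate 2 lay inside the control range and the other 4 above it. The increase was 1.92-fold (log2FC 0.94, SE 0.28, edgeR FDR 0.0297, DESeq2 FDR 0.00752). It was called in 8 of 14 fits with 1 rat left out (log2FC 0.85 to 1.11), and was lost without control replicate 3, 4 or 5 and without cirrhosis replicate 1, 3 or 4. Its relative Eif4ebp2 was at 17.7, 32.6, 16.4 and 30.3 FPM in control rats and at 13.98, 24.4, 7.88, 12.2 and 14.6 FPM in cirrhosis (log2FC -0.73, SE 0.39, edgeR FDR 0.183, and -0.48 without cirrhosis replicates 1 and 3). Eif4ebp3 had a log2FC of -0.17 (SE 0.17), and Eif4enif1, which carries eIF4E into the nucleus, one of -0.32 (SE 0.18).

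The 4 factors of subunit joining, 60S release and peptide bond formation had a median log2FC of 0.61 in cirrhosis, with 4 of 4 above 0, and Eif6 was called. The median was 0.36 without cirrhosis replicates 1 and 3, with 3 of 4 above 0. Eif6, which keeps the large ribosomal subunit from joining the small one and takes part in its assembly, was at 56.0, 63.5, 57.5 and 52.2 FPM in control rats, at 150, 83.4, 164, 93.8 and 65.9 FPM in cirrhosis and at 64.8, 55.6, 76.7, 60.6 and 88.8 FPM in cirrhosis & eplerenone (ENSRNOG00000049497, chromosome 3). The groups did not overlap between cirrhosis and control, and replicates 1 and 3 held the highest values. The increase was 1.94-fold (log2FC 0.96, SE 0.25, edgeR FDR 0.0166, DESeq2 FDR 0.00189). It was called in 13 of 14 fits with 1 rat left out, being lost without control replicate 5 (range of log2FC over the fits 0.78 to 1.099), and it was not called without cirrhosis replicates 1 and 3 (log2FC 0.53). Eif5a, the hypusine-bearing factor that helps the ribosome past stalling sequences, had means of 323 ± 15.6, 412 ± 75.0 and 354 ± 57.6 FPM (log2FC 0.35, SE 0.18, edgeR FDR 0.174). Its paralog Eif5a2 was close to the counting limit, at 0 to 0.578 FPM in control rats and 0.324 to 1.02 FPM in cirrhosis (log2FC 0.85, SE 0.66). Eif5b, the GTPase of subunit joining, had a log2FC of 0.37 (SE 0.26), and of -0.03 without cirrhosis replicates 1 and 3.

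In the elongation factor 1 complex, the GTP-binding subunit and the exchange subunits had different values. Eef1a1 was at 3188, 3464, 2927 and 3229 FPM in control rats, at 3055, 3267, 3047, 3090 and 2492 FPM in cirrhosis and at 2718, 3258, 2823, 3159 and 3167 FPM in cirrhosis & eplerenone. The groups overlapped, with cirrhosis replicate 5 and cirrhosis & eplerenone replicates 1 and 3 below the control range. The exchange subunits Eef1d, Eef1b2 and Eef1g had log2FC of 0.73 (SE 0.30), 0.56 (SE 0.22) and 0.54 (SE 0.23), with edgeR FDR of 0.0928, 0.0799 and 0.106, so that none was called, although DESeq2 alone gave Eef1b2 an FDR of 0.0398. Eef1d was at 87.9, 64.1, 83.1 and 62.5 FPM in control rats and at 166, 74.2, 209, 93.7 and 75.6 FPM in cirrhosis. Eef1g was at 220, 218, 196 and 206 FPM in control rats and at 411, 276, 413, 249 and 176 FPM in cirrhosis. In both, replicates 1 and 3 were the highest rats, and without them the log2FC was 0.16 for Eef1d, 0.19 for Eef1g and 0.34 for Eef1b2. The median log2FC of the 6 genes grouped here was 0.22, and 0.03 without cirrhosis replicates 1 and 3. These 6 include the rare Eef1a2 (log2FC -1.08) and Eef1e1 (log2FC -0.26).

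Eef1a2 replaces Eef1a1 in skeletal muscle and neurons and was rare in these livers. It was at 1.03, 1.45, 0.733 and 1.78 FPM in control rats, at 1.05, 0.408, 0.324, 0.154 and 1.01 FPM in cirrhosis and at 0, 0.688, 0.202, 0.169 and 0.328 FPM in cirrhosis & eplerenone. All rats that received eplerenone were below all control rats, and the difference from control was a log2FC of -2.17 (SE 0.74, edgeR FDR 0.103, DESeq2 FDR 0.0333), which was not called. The 5 muscle and neuron markers examined summed to 0.0611 to 0.191 FPM in control rats, 0 to 1.69 FPM in cirrhosis, and 0 to 0.273 FPM in cirrhosis & eplerenone, none of them passed the filter on low counts, and Acta1, Myh4 and Snap25 were at 0 in every control rat. Eef2 was at 926, 1264, 916 and 1261 FPM in control rats, 1349, 1100, 1321, 1420 and 1035 FPM in cirrhosis and 1174, 1293, 1096, 1511 and 1654 FPM in cirrhosis & eplerenone, with overlapping groups.

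To see whether the livers of treated rats differed from control, rats with cirrhosis & eplerenone were compared with the same control rats. A single factor, Eif1ax, was called (1.54%), whereas 5.33% of all protein coding genes were called and 4.5% were called higher. Eif1ax was 1.65-fold higher (log2FC 0.72, SE 0.18, edgeR FDR 0.0313, DESeq2 FDR 0.00493), in 5 of 5 rats above the control range. The call was made in 8 of 14 fits with 1 rat left out (log2FC 0.63 to 0.82) and was lost without any of the control rats and without cirrhosis & eplerenone replicate 1 or 3. The groups did not overlap for 3 factors (4.62%), Eif1ax above and Eef1a2 and Eif2s3y, the Y-linked gene of the eIF2 gamma subunit, below control, against 11.1% of all genes. The median absolute log2FC was 0.14 for the factors and 0.30 for all genes, and the median log2FC was -0.044 and 0.01. DESeq2 alone called 3 factors (4.62%), against 10.8% of all genes, and 4 factors (6.15%) had an unadjusted p below 0.05 by edgeR, against 20.9% of all genes. The 8 factors called between cirrhosis and control had the following log2FC here: Eef1akmt1 0.30 (SE 0.24), Eif6 0.27 (SE 0.24), Eif4ebp1 0.62 (SE 0.28), Eif1ax 0.72 (SE 0.18), Eif2b2 0.33 (SE 0.19), Eif5 -0.28 (SE 0.18), Eif2ak1 -0.14 (SE 0.25) and Eef2kmt -0.49 (SE 0.30). All 8 were smaller in size than in cirrhosis. They had been picked by their call in cirrhosis, so that smaller values here were likely beforehand. The median absolute log2FC of all genes was 0.49 in cirrhosis and 0.30 here. Both comparisons use the same control rats.

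**Figure D5:**
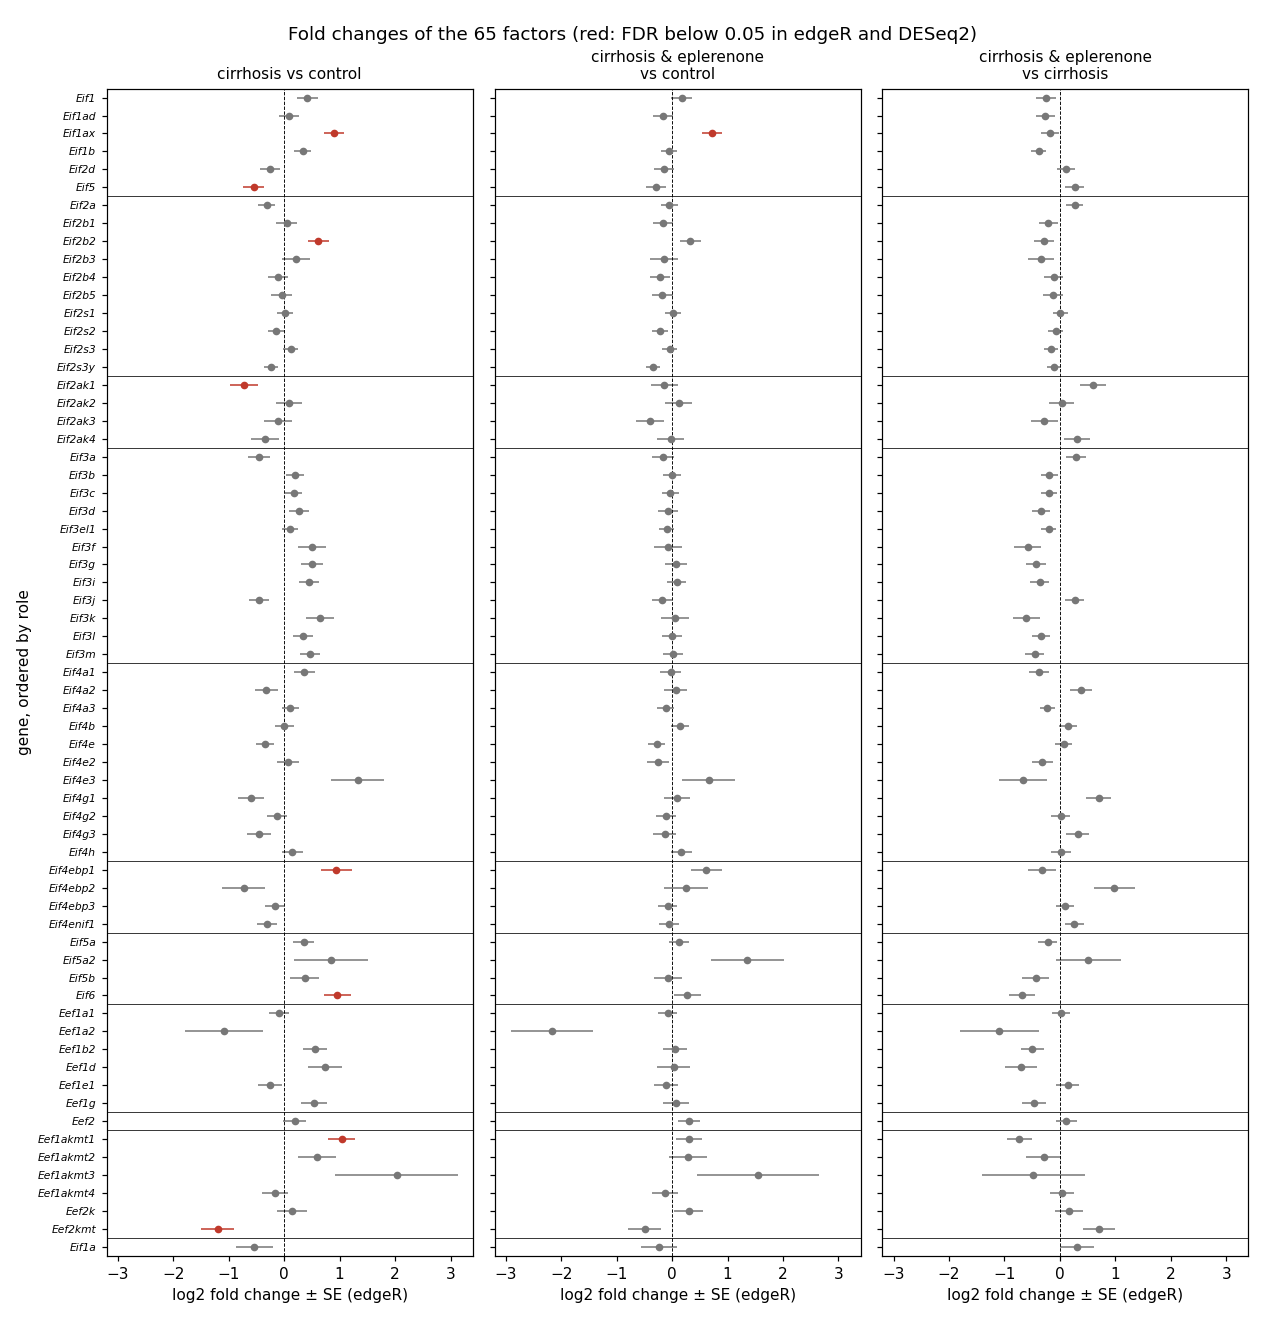
Log2 fold change (x axis) with its SE (bars) is drawn for each of the 65 factors (y axis, ordered by role) in the 3 comparisons, with factors called in edgeR and DESeq2 in red. There are 8 red points in cirrhosis against control, 1 in cirrhosis & eplerenone against control and none in cirrhosis & eplerenone against cirrhosis.

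To describe the cirrhotic liver with and without eplerenone, rats with cirrhosis & eplerenone were compared with rats with cirrhosis, among the rats picked by phenotype. No factor was called by edgeR (smallest FDR 0.312) or by DESeq2 (smallest FDR 0.0766), and 0.0147% of all genes were called in both. At an unadjusted p below 0.05 in edgeR there were 16 factors (24.6%), against 14.5% of all genes. The median log2FC was -0.18 for the factors and 0.01 for all genes, with 38 of 65 factors below 0. The groups did not overlap for 1 factor (1.54%), Eef1akmt1, against 0.947% of all genes. Its log2FC was -0.73 (SE 0.23, edgeR FDR 0.312, DESeq2 FDR 0.0766).

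The values by role ran as follows. Of the 12 Eif3 genes 10 had a log2FC below 0 with eplerenone, with a median log2FC of -0.34 and no call by either tool. By edgeR, 5 had an unadjusted p below 0.05, against 14.5% of all genes. Eif3f was at 93.9, 96.8, 96.5, 81.5 and 108 FPM in cirrhosis & eplerenone and Eif3k at 49.3, 48.4, 64.8, 53.8 and 76.4 FPM, with 1 of 5 rats below the range of the rats with cirrhosis for Eif3f and 3 of 5 below it for Eif3k. Eif4g1 had a log2FC of 0.70 (SE 0.22, edgeR FDR 0.312, DESeq2 FDR 0.116), Eif6 one of -0.68 (SE 0.23), Eef1d one of -0.70 (SE 0.28) and Eif4ebp2 one of 0.98 (SE 0.37). Eif4ebp2 was at 30.1, 46.6, 9.47, 36.5 and 22.1 FPM in cirrhosis & eplerenone, with replicates 3 and 5 inside the range of cirrhosis and the other 3 rats above it.

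Without cirrhosis replicates 1 and 3, the median log2FC of the factors between cirrhosis & eplerenone and cirrhosis was -0.042 and that of eIF3 was -0.11. The log2FC was then 0.45 for Eif4g1, -0.24 for Eif6, -0.11 for Eef1d, 0.73 for Eif4ebp2, -0.03 for Eif3f and -0.18 for Eif3k, whereas that of Eef1akmt1 was -0.70. Among rats with label prefix 15 (3 with cirrhosis, replicates 1, 2 and 3, and 2 with eplerenone), the median log2FC was -0.13 for the factors and -0.56 for eIF3. Among rats with label prefix 20 (2 and 3 rats) it was -0.027 and -0.014. The difference between the prefixes, tested in edgeR for each gene, had an FDR below 0.05 for no factor (lowest 0.373), with 5 factors (7.69%) at an unadjusted p below 0.05 (Eef1g, Eif3f, Eif3j, Eif4g1 and Eif6), against 12.1% of all genes. For Eif4g1, the log2FC with eplerenone was 1.26 within prefix 15 and 0.13 within prefix 20. When 4 rats were used per group, without cirrhosis replicate 5 and cirrhosis & eplerenone replicate 3, 6 factors were called, close to the share of all genes (9.22%). They were Eef1g, Eif3m, Eif4e3 and Eif6, lower, and Eif4ebp2 and Eif4g1, higher with eplerenone. No factor was called under the other alternatives. The 2 rats left out had the highest summed hepatocyte markers of cirrhosis (140790 FPM) and the lowest of cirrhosis & eplerenone (72784 FPM). Leaving them out therefore moves the groups apart in that sum, and the 6 calls are not read as an effect of eplerenone.

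The 8 factors with known TOP mRNAs that were measured (Eef1a1, Eef1a2, Eef1b2, Eef1d, Eef1g, Eef2, Eif3f and Eif4b) were described together because mTORC1 controls their translation. The median log2FC of these 8 was 0.35 for cirrhosis relative to control, 0.05 in cirrhosis & eplerenone against control and -0.49 in cirrhosis & eplerenone against cirrhosis, whereas the other 57 factors had medians of 0.09, -0.05 and -0.16. Without cirrhosis replicates 1 and 3, the TOP factors had medians of 0.083 against control and -0.068 in cirrhosis & eplerenone against cirrhosis, and the others 0.014 and -0.042. In the latter comparison, 3 TOP factors lay above 0 and 5 below with all rats. Within label prefix 15 their median there was -0.88 (1 above and 7 below 0), and within prefix 20 it was 0.11 (6 above and 2 below). The other factors had medians of -0.13 and -0.03 within these prefixes. No TOP factor was called in any comparison by both tools. By edgeR, 3, 1 and 4 had an unadjusted p below 0.05, against 37.6%, 20.9% and 14.5% of all genes. DESeq2 alone called 1, 1 and 0, against 3847, 1476 and 67 of the 13628 protein coding genes tested.

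The neighbouring parts of the pathway were examined in lists of other genes. Of 23 other translation factors, such as poly(A)-binding proteins and release factors, none was called in cirrhosis, against 20.6% of all genes. Among them 4 had an unadjusted p below 0.05 by edgeR, against 37.6% of all genes. DESeq2 alone called 2, against 3847 of the 13628 protein coding genes tested. Their median log2FC was -0.12. Of 17 regulators around mTORC1 and the MNK kinases, 1 was called higher and 2 were called lower in cirrhosis, against 13.8% and 6.72% of all genes. By direction alone, 5 lay above and 12 below control. Ddit4, an inhibitor of mTORC1, had a log2FC of 1.65 (SE 0.56, edgeR FDR 0.0491), Rps6kb1, the S6 kinase, one of -0.79 (SE 0.21, edgeR FDR 0.0178) and Larp1, which represses TOP mRNAs, one of -0.62 (SE 0.17, edgeR FDR 0.0208). Of 22 cytosolic aminoacyl-tRNA synthetases and their scaffolds, only Eprs was called, against 20.6% of all genes. Its log2FC was -0.61 (SE 0.20, edgeR FDR 0.0402). In cirrhosis & eplerenone against control and against cirrhosis, no gene of these 3 lists was called by both tools, against 5.33% and 0.0147% of all genes. By edgeR, 2 and 3 other translation factors, 4 and 3 mTORC1 regulators and 1 and 1 synthetases had an unadjusted p below 0.05 there. Of all genes, 20.9% and 14.5% did. DESeq2 alone called 1 other translation factor against control.

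Targets of the integrated stress response, the programme that follows phosphorylation of eIF2 alpha, were examined in the same way. Of 22 targets tested, 8 were called higher and 1 was called lower in cirrhosis, against 13.8% and 6.72% of all genes. In cirrhosis & eplerenone against control, 4 were called higher, against 4.5% of all genes. By direction alone, 16 of 22 lay above control in cirrhosis and 15 of 22 in cirrhosis & eplerenone. None was called in cirrhosis & eplerenone against cirrhosis by either tool, with 1 at an unadjusted p below 0.05 by edgeR, against 14.5% of all genes. Phgdh, of serine synthesis, had log2FC of 5.02 (SE 1.13) and 4.88 (SE 1.12) in cirrhosis and in cirrhosis & eplerenone against control, Psat1, of the same pathway, 2.87 (SE 0.56) and 2.53 (SE 0.55), and Ppp1r15a, which guides the phosphatase of eIF2 alpha, 1.38 (SE 0.30) and 1.41 (SE 0.30). All of these were called. Atf4, the transcription factor at the centre of this programme and controlled by translation, had log2FC of 0.28 (SE 0.18) and 0.11 (SE 0.18) and was not called. Aldh1l2, a mitochondrial folate enzyme, was the target called lower in cirrhosis (log2FC -1.499, SE 0.41, edgeR FDR 0.0215). Ddit4 and Sesn2 (log2FC -0.65, not called) belong to this list and to that of mTORC1 regulators.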

How the data were processed

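The authors isolated poly(A) RNA from liver, sequenced it in pairs and mapped the reads to rn6 with HISAT2 2.1.0. The deposited table holds raw counts of reads per gene over exons, made by the authors with featureCounts with multi-mapping reads counted at each place, and Ensembl symbols, chromosomes and biotypes. Columns for 14 samples were used. Control replicate 1 was not analysed here. Genes were filtered with filterByExpr (minimum count 10), which left 13628 of 14417 tested genes protein coding, scaled by TMM and fitted over the 3 groups in edgeR 4.0.16 (quasi-likelihood test, the source of log2FC and SE) and DESeq2 1.42.0 (Wald test), in R 4.3.3. A gene was called at a Benjamini-Hochberg FDR below 0.05 in both. The SE was computed as the absolute log2FC divided by the square root of the F statistic of the edgeR test. Log2 levels per rat used a pseudocount of 0.1 FPM. P-values test the difference between groups against the spread between rats within the groups. The members and gene lists were chosen with earlier results of these data known. Full statistics were given for called factors and a list of 26 symbols. Alternatives changed the scaling, filter, tool and samples. The fitting code was tested on simulated data. Promoter sequences and pseudogene names are from RefSeq (GRCr8) and were not mapped to rn6 coordinates.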

Additional observations from a re-analysis of the deposited data

Results flagged for a closer look

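Among 87 sets of samples (29 factors in 3 groups), 5 held a rat whose gap to its nearest neighbour took up most of the range of its group, by Dixon's criterion at the 95% level, and chance alone marks about 1 set in 20. In cirrhosis replicate 5, Eef1a1 was at 2492 FPM against 3047 to 3267 FPM in the other 4 rats, and Eif2ak2 was at 42.4 FPM against 17.9 to 23.3 FPM. In control replicate 2, Eif1ax was at 13.6 FPM against 17.2 to 17.7 FPM in the other control rats. In cirrhosis & eplerenone replicate 3, Eif4e3 was at 6.03 FPM against 1.75 to 2.61 FPM, and in cirrhosis & eplerenone replicate 5, Eif4ebp1 was at 67.5 FPM against 28.5 to 36.9 FPM.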

How the results depend on the processing

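Between cirrhosis and control, the 8 calls (20.6% of all genes called) became 19 with library sizes left unscaled (24.2%), 13 with DESeq2 alone (28.2%), 20 with 4 rats per group (34.6%) and 4 with the replicate number as a block (12.4%). Without cirrhosis replicates 1 and 3, an alternative added after seeing the data, they became 2 (7.35%). DESeq2 size factors, 2 other filters on low counts, edgeR alone and a fit of only the compared groups gave 6 to 8. The median log2FC moved from 0.10 to 0.39 with library sizes left unscaled, where all genes stood at 0.28. It moved to 0.045 with the replicate block and to 0.017 without cirrhosis replicates 1 and 3. Leaving out each rat in turn gave 3 to 20 calls and medians of 0.08 to 0.14. For cirrhosis & eplerenone against control, the single call (5.33%) became 2 with library sizes left unscaled (9.67%), 3 with DESeq2 alone (10.8%), 0 with 4 rats per group (4.94%) and 0 with the replicate block (1.91%). There the median moved from -0.044 to 0.29 with library sizes left unscaled, where all genes stood at 0.32, and leaving out each rat gave 0 to 2 calls. For cirrhosis & eplerenone against cirrhosis, 4 rats per group gave 6 calls (9.22%) where every other alternative gave 0, and the median moved from -0.18 to -0.042 without cirrhosis replicates 1 and 3 and to -0.027 within label prefix 20. The cause of these shifts was not tested. Same-numbered rats are different animals, and of 13 same-numbered pairs 4 had a correlation of deviations over 0.1 (range -0.35 to 0.21), with 0 of 14 samples correlating best with their own number, so the numbers do not pair the samples. The smallest fold that could be called was limited by 4 or 5 rats per group.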
